A study of Homo sapiens with 6 samples.

Results

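The genes described here are 10 that make and shape fatty acids in the cytosol and endoplasmic reticulum, chosen as a fixed list of symbols: ACLY, ACSS2, ACACA, ACACB, MID1IP1, FASN, ELOVL5, ELOVL6, SCD and SCD5. All 10 of the 10 were found among the 23686 genes of the count files, and all 10 had enough reads to be tested. The RNA came from HEK293 cells, an established human embryonic kidney line, that carried green fluorescent protein (GFP+). In the ROS co-culture group (3 libraries), GFP+ cells had shared a dish for 10 h with HEK293 cells carrying DAAO. This name commonly stands for the enzyme D-amino acid oxidase, which makes hydrogen peroxide, a reactive oxygen species (ROS), as it oxidises D-amino acids such as the D-alanine given at 25 µM. The control group (3 libraries) held GFP+ HEK293 cells, called wild type in the titles, that were sorted in the same way. All cells were grown in high-glucose DMEM with serum. The labels carry 1 treatment text for all 6 libraries, so whether the controls had D-alanine or partner cells is not given, nor whether replicates were separate cultures. If they were not, p-values measure only the spread between these samples. In this sorted population, fewer expressing cells and less RNA per cell cannot be told apart.

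Fatty acid synthesis starts from acetyl-CoA outside the mitochondria. ACLY cleaves exported citrate to acetyl-CoA, and ACSS2 makes it from acetate. The acetyl-CoA carboxylases ACACA and ACACB turn it into malonyl-CoA, the first committed step, and MID1IP1 binds these carboxylases and favours their active polymers. FASN then builds palmitate with NADPH as the reductant, ELOVL6 and ELOVL5 lengthen saturated or monounsaturated and polyunsaturated chains, and SCD and SCD5 place the first double bond. Transcription of the pathway is driven by sterol regulatory element-binding proteins (SREBPs), which INSIG proteins hold back when sterols are plentiful, and by the sterol-sensing liver X receptors (LXRs), which also raise SREBF1 and SCD.

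Promoters are shown for ACLY, which passed the test, and for SCD, the desaturase that passed it only without control 1. Also shown is MID1IP1, the only member with a match to the form of the sterol regulatory element that was searched. Other forms of that element were not searched. RefSeq promoter windows (GRCh38.p14) matched 9 of the 10 genes by symbol, with 14 windows in all, and FASN had none. ACLY had another, overlapping window, chr17:41918952-41919201, with motif matches at other distances from its start, which is not printed. The 250 bases before each start are printed 5′ to 3′ on the gene's strand, with motif matches on either strand in capitals.
ACLY, chr17:41919023-41919272, minus strand: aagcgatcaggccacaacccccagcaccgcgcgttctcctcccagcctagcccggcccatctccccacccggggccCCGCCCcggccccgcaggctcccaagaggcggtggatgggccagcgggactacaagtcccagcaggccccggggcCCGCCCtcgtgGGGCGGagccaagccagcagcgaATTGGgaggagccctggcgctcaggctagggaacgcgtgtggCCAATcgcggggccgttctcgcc
SCD, chr10:100346983-100347232, plus strand: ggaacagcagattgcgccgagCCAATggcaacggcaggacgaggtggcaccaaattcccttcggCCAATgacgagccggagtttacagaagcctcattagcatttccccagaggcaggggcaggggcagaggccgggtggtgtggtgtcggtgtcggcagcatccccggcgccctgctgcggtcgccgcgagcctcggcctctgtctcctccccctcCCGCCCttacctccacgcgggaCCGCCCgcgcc
MID1IP1, chrX:38801209-38801458, plus strand: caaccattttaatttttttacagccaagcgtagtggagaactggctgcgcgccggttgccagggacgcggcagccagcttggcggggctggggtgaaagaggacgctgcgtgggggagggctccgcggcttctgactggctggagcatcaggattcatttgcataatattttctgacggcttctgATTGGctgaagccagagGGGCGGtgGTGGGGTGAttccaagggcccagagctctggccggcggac

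The motifs searched were the sterol regulatory element in the form TCACNCCAC, the NF-Y box CCAAT, the SP1-type GC box GGGCGG and the E-box CACGTG. Of 35116 promoter windows of the same length, 0.883% held TCACNCCAC, 32% held CCAAT, 42.6% held GGGCGG and 6.34% held CACGTG. Among the 9 members with a window, TCACNCCAC was found only in MID1IP1, on the strand opposite to the printed one. As printed, the capitals of this match begin 40 bases before the start. Counted by window, as in these shares, CCAAT was found in 10 of the members' 14 windows and GGGCGG in 11, some of which overlap or belong to the same gene. CACGTG was found in 1 window, that of ELOVL5. The SCD window holds CCAAT boxes on the printed strand that begin 229 and 186 bases before the start. These are matches of letters and not measured binding.

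The libraries held 19091085 to 36250314 reads on the reverse strand of genes, so 1 read was worth 0.0279 to 0.0522 CPM (reads scaled to library size, with trimmed means of M-values, TMM). Reads on the forward strand, where few belong, had a median share over 5032 genes of 0.127% and 0.216% in ROS co-culture libraries 2 and 3 and 1.59% to 1.79% in the other 4 libraries. A fit adjusted for this strand class, which compares ROS co-culture library 1 with the 3 controls, is given beside results. Of the HEK293 markers VIM, KRT8, KRT18, NEFL, NEFM and PAX2, all 6 had reads in every library, and their summed level was 2091 to 2307 CPM in co-culture and 1725 to 1795 CPM in controls. VIM alone of the 6 passed the test (log2 fold change 0.40, adjusted p 0.00793 in edgeR). The 5 adipocyte markers summed to 0.835 to 1.66 CPM, the 5 hepatocyte markers to 0.0384 to 0.253 CPM and the 5 blood and endothelial markers to 0.0505 to 0.307 CPM, with no reads at all for LEP, TTR, CD3E and HBB. The part of the marker levels in the results was not tested. No library held a read of DAO, which encodes the human oxidase, a limit of 0.0838 to 0.156 CPM for counting error, though a transgene of another sequence would not be counted there.

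In the main comparison ACLY rose in the co-culture group, 1.23-fold, and the other 9 members did not pass the test. Of the 10 log2 fold changes, 8 were above 0 and 2 below, with a median of 0.18, against a median of -0.0022 and 49.6% above 0 over the 14582 genes tested. Over all genes 4.83% were called in either direction, 2.66% as higher (edgeR quasi-likelihood test, Benjamini-Hochberg adjusted p under 0.05) and 2.17% as lower, beside 1 of 10 members as higher and 0 as lower. A single call among 10 genes gives no result about the group as a whole. The CPM of the 2 groups did not overlap for 5 members, FASN, ACACA, ACLY, ELOVL5 and ELOVL6, all higher in co-culture, where 14.3% of all tested genes were higher without overlap. The same 5 had an unadjusted p under 0.05, as did 23.2% of all tested genes in either direction.

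The acetyl-CoA suppliers come first. ACLY stood at 709, 698 and 774 CPM in ROS co-culture libraries 1, 2 and 3, and at 574, 586 and 614 CPM in controls 1, 2 and 3. Every co-culture library lay above every control, and the gap between the groups was wider than the spread within either. The means were 727 ± 41.1 and 591 ± 20.9 CPM (SD, n = 3). On the log2 scale the difference was 0.30, with a standard error (SE) of 0.07. Its edgeR adjusted p was 0.0314. The call rested on every library but controls 1 and 3: without ROS co-culture library 1, 2 or 3 or control 2 the log2 fold change was 0.32, 0.33, 0.25 and 0.29, and edgeR gave adjusted p-values of 0.104, 0.129, 0.0873 and 0.152. Adjusted for strand class it was 0.26 (SE 0.10, adjusted p 0.335 in edgeR).

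ACSS2, the acetate route, stood at 29.2, 30.0 and 30.9 CPM in co-culture and at 31.8, 27.0 and 26.3 CPM in controls 1, 2 and 3. Control 1 was above all co-culture libraries and the other controls were below them, so the groups overlapped. The log2 fold change was 0.08 (95% interval -0.11 to 0.27, adjusted p 0.595 in edgeR).

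Of the carboxylases, ACACA, the cytosolic form that feeds synthesis, had 328, 313 and 324 CPM in co-culture and 282, 273 and 297 CPM in the controls. The groups did not overlap, but the log2 fold change of 0.18 (SE 0.06) missed the threshold (adjusted p 0.105 in edgeR). ACACB, the form tied to mitochondria whose malonyl-CoA restrains fatty acid import, took far fewer reads, at 21.8, 22.9 and 23.2 CPM in co-culture against 22.8, 20.3 and 22.3 CPM. Its groups overlapped, and the log2 fold change was 0.05 (95% interval -0.12 to 0.23, adjusted p 0.731 in edgeR). MID1IP1, the carboxylase partner, had 25.7, 26.4 and 24.1 CPM in co-culture and 37.9, 29.4 and 22.8 CPM in the controls. The controls were spread on both sides of the co-culture libraries, with an SD of 7.60 CPM in the controls and 1.14 CPM in co-culture. The log2 fold change of MID1IP1 was -0.24 (95% interval -0.60 to 0.12, adjusted p 0.407 in edgeR). Without control 3 it was -0.41 (adjusted p 0.0444 in edgeR), and without control 1 it was -0.03 (adjusted p 0.844 in edgeR).

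FASN, the synthase itself, had 833, 875 and 943 CPM in co-culture and 769, 772 and 810 CPM in the controls. All co-culture libraries were above all controls, though the lowest of them and the highest control were 833 and 810 CPM. Its log2 fold change was 0.17 (SE 0.07, adjusted p 0.154 in edgeR). Adjusted for strand class the value was 0.09 (95% interval -0.13 to 0.31, adjusted p 0.742 in edgeR).

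**Figure D1:**
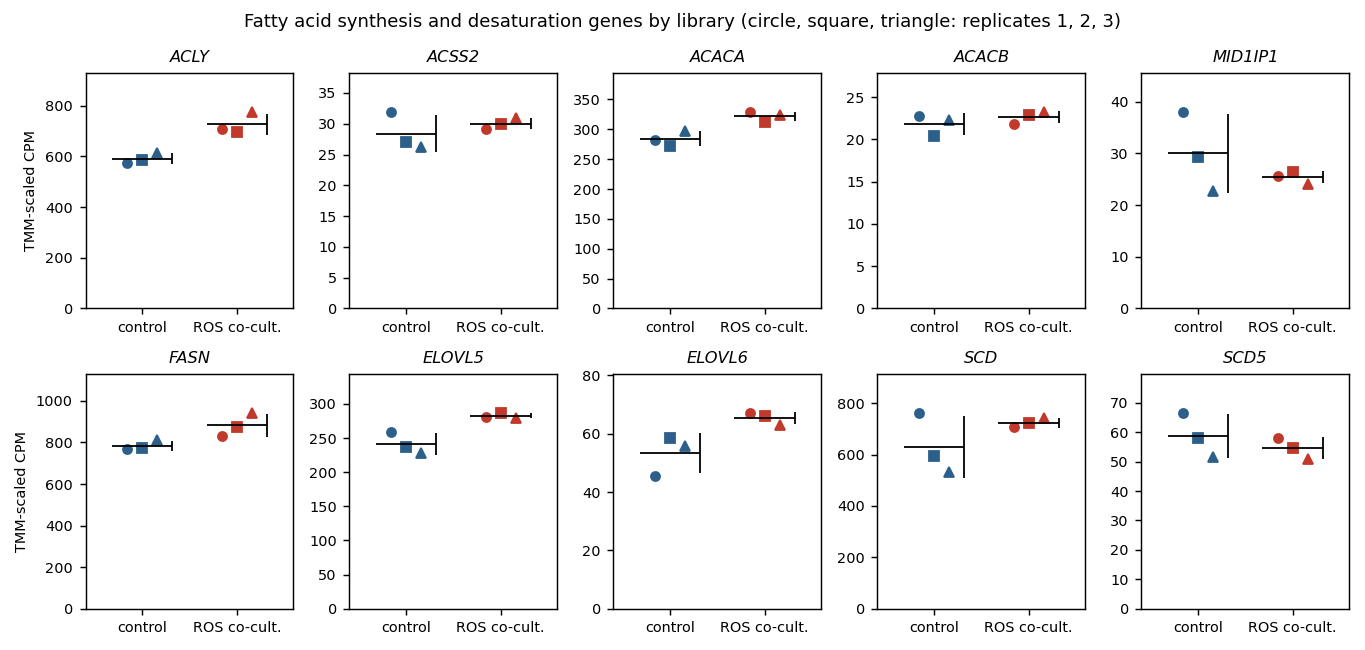
TMM-scaled CPM (vertical axis, from 0) of the 10 genes in the 3 control (blue) and 3 ROS co-culture (red) libraries, with circles, squares and triangles for replicates 1, 2 and 3, the group mean as a horizontal line and 1 SD either side as a vertical line. ACLY, FASN, ACACA, ELOVL5 and ELOVL6 show no overlap between the groups, while control 1 (blue circle) is the highest library for SCD, SCD5, ACSS2 and MID1IP1 and the lowest for ELOVL6.

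Both elongases lay higher in every co-culture library than in any control without passing the test. ELOVL5, which extends polyunsaturated chains, had 281, 287 and 280 CPM in co-culture and 259, 237 and 228 CPM in the controls. The log2 fold change was 0.23 (SE 0.06, adjusted p 0.0625 in edgeR). ELOVL6, which takes palmitate to stearate, had 67.2, 66.0 and 63.0 CPM in co-culture and 45.6, 58.7 and 55.7 CPM in the controls, with control 1 lowest. Its log2 fold change was 0.29 (SE 0.09, adjusted p 0.0826 in edgeR). DESeq2 called 7.52% of genes in either direction and 3 members as higher, ACLY and both elongases. Its adjusted p-values were 0.0201 for ELOVL5 and 0.0421 for ELOVL6.

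The desaturases differed from each other in level. SCD, the main stearoyl-CoA desaturase, had 706, 721 and 741 CPM in co-culture and 763, 594 and 532 CPM in controls 1, 2 and 3. The co-culture libraries lay close together (SD 17.9 CPM, against 119 CPM in the controls), whereas control 1 was above all of them and controls 2 and 3 were below. A larger SD in the controls was found for 8 of the 10 members and for 68.5% of all tested genes. The log2 fold change of SCD was 0.20 (95% interval -0.06 to 0.45, adjusted p 0.326 in edgeR). Without control 1 it was 0.36 (95% interval 0.24 to 0.48, adjusted p 0.00027 in edgeR), and without control 3 it was 0.09 (95% interval -0.12 to 0.30, adjusted p 0.617). SCD5, a second desaturase with high expression in brain, had 58.1, 54.7 and 51.0 CPM in co-culture and 66.6, 58.1 and 51.7 CPM in the controls. Its groups overlapped, and the log2 fold change was -0.11 (95% interval -0.31 to 0.10, adjusted p 0.527 in edgeR).

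Several members depended on control 1. This library was the highest of the controls for 6 of the 10 members, against 39.5% of all tested genes. Relative to the mean of controls 2 and 3, control 1 differed by log2 0.54 for MID1IP1, 0.44 for SCD, 0.28 for SCD5, 0.26 for ACSS2 and 0.15 for ELOVL5. For ELOVL6 the difference was -0.33, and for FASN, ACACA and ACLY it was -0.04, -0.02 and -0.06. Without control 1, 5 members rose (ACLY, ACACA, ELOVL5, ELOVL6 and SCD). That fit called 20.8% of all tested genes in either direction, with 1558 of 14734 as higher. In that fit SCD5 and MID1IP1 stood at log2 fold changes of -0.01 and -0.03, both near 0. Without control 3, ACLY passed as higher and MID1IP1 as lower (5% of all genes called). Without ROS co-culture library 1, 2 or 3 or control 2, edgeR called 0 members, in fits that called 0.831%, 0.503%, 2.18% and 0.44% of genes, and between 3 and 5 members had an unadjusted p under 0.05. Adjusted for strand class it also called 0 members, with 4 at an unadjusted p under 0.05, where 0.199% of genes were called. These percentages count adjusted p-values in either direction. The share of all genes at an unadjusted p under 0.05 was not counted in these fits. The member counts at that level therefore give no result about the members.

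**Figure D2:**
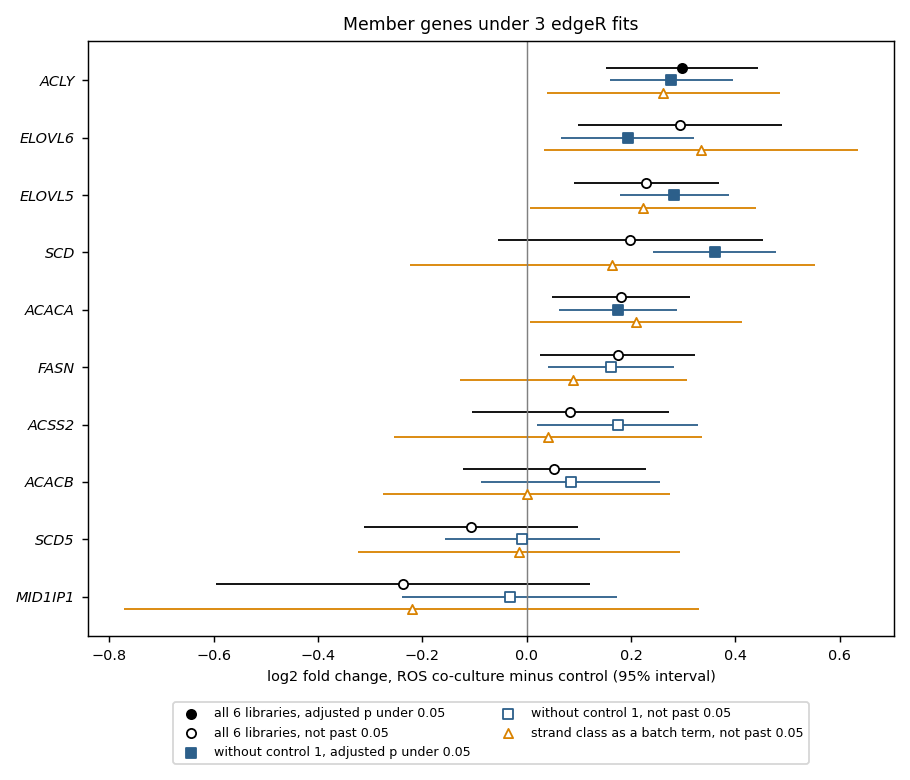
Log2 fold changes of the 10 genes (horizontal axis, ROS co-culture minus control, points with 95% intervals) in 3 edgeR fits: all 6 libraries (black circles), without control 1 (blue squares) and adjusted for strand class (orange triangles), filled where the adjusted p is under 0.05. ACLY is filled with all libraries, 5 genes are filled without control 1, and none is filled with the strand class in the fit, where ACACB stands at -0.0003.

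Per kilobase of the longest coding transcript in GENCODE release 29, the mean control levels ran in the order ACLY (136 ± 4.81), SCD (117 ± 22.3), FASN (91.5 ± 2.69), ELOVL5 (78.3 ± 5.12), ACACA (28.5 ± 1.24), SCD5 (19.0 ± 2.42), ACSS2 (9.26 ± 0.985), ELOVL6 (8.26 ± 1.06), MID1IP1 (7.94 ± 2.01) and ACACB (2.33 ± 0.138), each as CPM per kb ± SD over 3 libraries. ACLY and SCD did not differ beyond the spread of SCD, and ACSS2, ELOVL6 and MID1IP1 did not differ beyond theirs. HEK293 cells thus carried SCD rather than SCD5, and ACACA rather than ACACB, as the more abundant transcript of each pair in both groups.

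Profiles over the 6 libraries were compared by the root mean square difference of gene-centred log2 CPM, among 131 lipid genes with a mean of at least 5 CPM. Nearest to FASN were LSS, a sterol cyclase (0.049), ACO1, a cytosolic aconitase and iron sensor (0.0601), and ACACA (0.0611). Nearest to SCD were LPIN1, a phosphatidate phosphatase (0.0454), SLC25A1, the mitochondrial citrate carrier (0.0487), and FADS1, the delta-5 desaturase (0.0492). The candidates share libraries and scaling, so the order is a description only.

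Of the 13 SREBP and LXR regulators, edgeR called 0, with 2 higher and 3 lower at an unadjusted p under 0.05, while DESeq2 called 1 and limma-voom 0. INSIG1, which retains SREBPs in the endoplasmic reticulum and is itself their target, had 191, 192 and 185 CPM in co-culture and 144, 97.7 and 81.6 CPM in controls 1, 2 and 3. The groups did not overlap but the controls were scattered, and the log2 fold change of 0.82 (SE 0.20) missed the threshold (adjusted p 0.0712 in edgeR). INSIG1 passed in 3 of 15 other settings, among them DESeq2. Adjusted for strand class, edgeR called 0 of the 13 regulators. SREBF1, which encodes the SREBP that chiefly drives fatty acid genes, had 29.5, 31.1 and 31.2 CPM in co-culture and 45.6, 36.3 and 34.1 CPM in the controls, a log2 fold change of -0.33 (SE 0.10, adjusted p 0.0859 in edgeR). SREBF2, which encodes the sterol-directed SREBP, had a log2 fold change of 0.15 (adjusted p 0.332 in edgeR). All co-culture libraries were below all controls for SREBF1, as for 15% of all tested genes, and SREBF2 overlapped between the groups. Without control 1, INSIG1 stood at 1.08 (adjusted p 6.21e-08 in edgeR), SREBF2 at 0.27 (0.0024) and SREBF1 at -0.20 (0.0552). Without control 3, SREBF1 passed as lower, at -0.42 (adjusted p 0.0297 in edgeR).

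Neighbouring genes of the pathway were described by their counts beside the 4.83% called overall. Among 10 genes that supply precursors and NADPH, edgeR called 0, and 2 were higher and 0 lower at an unadjusted p under 0.05 (0 by DESeq2 and limma-voom). The median log2 fold change was 0.09. SLC25A1 had 0.16 (adjusted p 0.305 in edgeR), and ME1, a cytosolic malic enzyme that makes NADPH, had 0.24 (adjusted p 0.119 in edgeR). Among the other genes of elongation and desaturation, 14 of 15 could be tested and 1 rose: HSD17B12, the ketoacyl-CoA reductase of the elongation cycle, at 152 ± 4.23 CPM in co-culture against 121.5 ± 6.35 CPM, a log2 difference of 0.32 (adjusted p 0.0175 in edgeR). FADS1 and FADS2, the desaturases of polyunsaturated fatty acids, stood at log2 differences of 0.29 and 0.32 (adjusted p 0.135 and 0.315 in edgeR). FADS2 had 169, 162 and 179 CPM in co-culture and 178, 120 and 109 CPM in controls 1, 2 and 3, so that control 1 lay among the co-culture values and controls 2 and 3 below them.

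Of 5 acyl-CoA synthetases, which activate fatty acids, 4 could be tested and edgeR called 0, with 1 higher at an unadjusted p under 0.05 (0 by DESeq2 and limma-voom). ACSL1, ACSL3 and ACSL4 had log2 fold changes of -0.08, 0.01 and 0.10, and ACSL3 had the other sign in 4 of 15 other settings. Of the 12 tested genes of glycerolipid synthesis, 1 rose: LPIN3, a phosphatidate phosphatase, at 28.5 ± 1.15 against 21.1 ± 1.43 CPM, a log2 difference of 0.43 (adjusted p 0.0176 in edgeR). HSD17B12 and LPIN3 stood at 0.32 and 0.39 adjusted for strand class, without passing (adjusted p 0.236 and 0.267 in edgeR), and each lost its call without ROS co-culture library 1 or 2 or control 2. Of 21 genes of fatty acid oxidation, edgeR called 0, with 1 higher and 2 lower at an unadjusted p under 0.05 (0 by DESeq2 and limma-voom), and CPT1A, the gate of mitochondrial import, had 0.00 (SE 0.07).

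**Figure D3:**
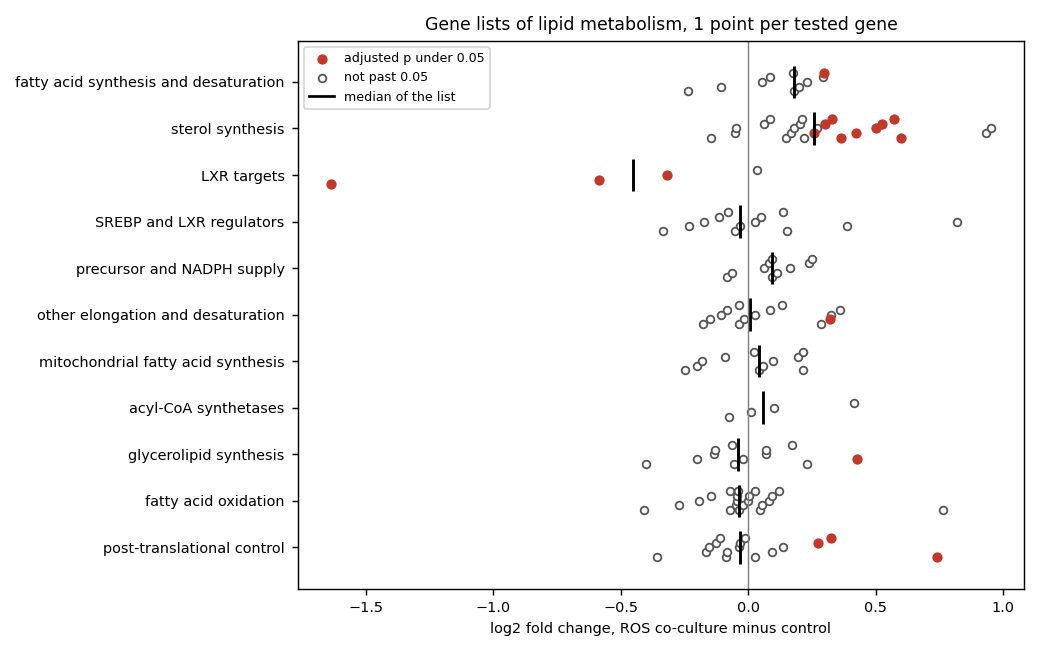
Log2 fold change (horizontal axis, ROS co-culture minus control) of every tested gene in 11 lists of lipid metabolism, 1 point per gene, red where the edgeR adjusted p is under 0.05, with the list's median as a black bar. The fatty acid synthesis genes have a median of 0.18, below the sterol synthesis list at 0.26 and above the other 9 lists, of which the LXR targets lie lowest at -0.45.

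The sterol list, mostly synthesis genes and targets of the same SREBP family, had 9 of 23 tested genes higher and 0 lower, with a median log2 fold change of 0.26. Among them HMGCS1, the synthase that precedes the committed step, had 0.60 (adjusted p 0.0345 in edgeR), IDI1 0.57 (0.00105) and MSMO1 0.50 (0.00923). The count was 14 without control 1, 2 without control 2 or ROS co-culture library 1 or 2, 5 without ROS co-culture library 3 and 1 adjusted for strand class. Of all tested genes, 2.66% were called as higher and 2.17% as lower in the main fit. In either direction, 20.8% were called without control 1, 0.44% without control 2 and 5% without control 3. Without ROS co-culture library 1, 2 or 3 the shares were 0.831%, 0.503% and 2.18%. The same shares stand beside the counts of the lists that follow. Whether the sterol genes differ from the fatty acid genes in their response was not tested.

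Of 5 listed LXR targets, 4 could be tested and 3 fell: ABCG1, a sterol exporter, with a log2 fold change of -1.64 (adjusted p 0.0154 in edgeR), MYLIP, a ubiquitin ligase, with -0.58 (0.00143), and LPCAT3, an acyltransferase of membrane phospholipids, with -0.32 (0.0331). The count was 1 without ROS co-culture library 1, 2 or 3, it was 2 without control 2 or 3, and 0 adjusted for strand class (-1.67, -0.50 and -0.26 for ABCG1, MYLIP and LPCAT3). ABCG1 had 3.00, 3.37 and 2.88 CPM in co-culture and 14.5, 7.51 and 6.83 CPM in the controls, with control 1 highest, and its log2 fold change was -1.22 without control 1. SREBF1 and SCD are LXR targets as well, and their values are given above.

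Of 16 genes listed for post-translational control of the pathway's enzymes or regulators, 3 rose, where 2.66% of all tested genes were called as higher. TRIB1, a pseudokinase that brings substrates to the ubiquitin ligase COP1, had 25.8, 24.3 and 23.3 CPM in co-culture and 15.6, 13.9 and 14.3 CPM in the controls, a log2 fold change of 0.74 (SE 0.09, adjusted p 0.00171 in edgeR). It passed in all 15 other settings. PRKAB2, a subunit of AMP-activated kinase, which inhibits the carboxylases, had 0.33 (SE 0.06, adjusted p 0.0178 in edgeR). BRCA1, whose protein binds phosphorylated ACACA besides its role in DNA repair, had 0.28 (SE 0.07, adjusted p 0.0478 in edgeR). PRKAB2 and BRCA1 each passed in 9 of the 15 settings. The count of this list was 1 without ROS co-culture library 1, 2 or 3, without control 2 and adjusted for strand class.

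**Figure D4:**
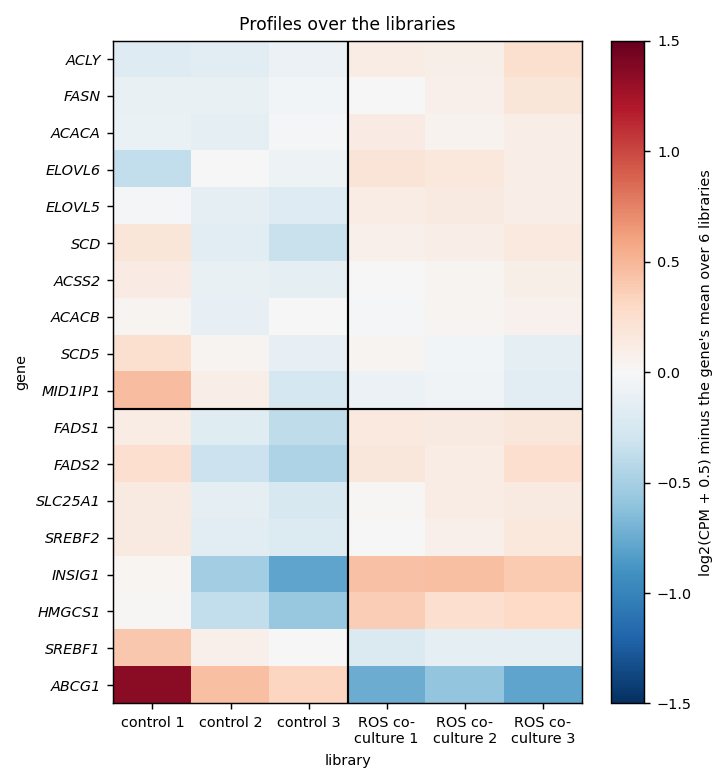
Colour gives log2(CPM + 0.5) minus the gene's mean over the 6 libraries (scale from -1.5 to 1.5) for the 10 genes above the line and 8 related genes below it, with controls left and ROS co-culture right of the vertical line. Control 1 resembles the co-culture libraries for SCD, FADS1, FADS2, SLC25A1 and SREBF2, lies between the groups for INSIG1 and HMGCS1, and is the highest library for MID1IP1, SREBF1 and ABCG1.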

How the data were processed

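Per the labels' protocols, 6 stranded mRNA libraries were made from sorted GFP+ HEK293 cells. The authors deposited raw counts of reads per gene, 1 file per library, with 4 summary lines and a column each for unstranded, forward and reverse reads. STAR 2.53a, FastQC and the build hg18 are named in the submitters' processing notes, and the annotation release and read trimming are not given in the sources used here. Multimapping reads (6.48% to 8.42%) are left out of gene counts in this layout.

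Reverse-strand counts were tested in edgeR 4.0.16 (R 4.3.3): filterByExpr at a minimum count of 10 left 14582 of 23686 genes, TMM scaling, a robust quasi-likelihood fit with group as the only term, and Benjamini-Hochberg adjustment over all tested genes at 0.05. Dividing each log2 fold change by the root of its F statistic gave its SE. The common biological coefficient of variation was 0.0835. Pairs within a group differed beyond sampling noise (chi-square per degree of freedom 4.03 to 15.2), so each library counted once. Alternatives included DESeq2 1.42.0 and limma 3.58.1 (voom). Intervals and zero-count bounds cover counting or replicate error only.

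The members, the lists (143 genes, 8 of those listed found under an older symbol and GPAT3 not matched) and the alternatives were chosen with earlier results of these data known. Named were all members, up to 4 genes past the threshold in each list, 13 fixed genes, and the 3 genes nearest in profile to FASN and SCD. Some genes that this rule names are not reported here.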

Additional observations from a re-analysis of the deposited data

How the results depend on the processing

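Over 15 other settings, the 10 members gave 150 values, of which 136 kept both direction and side of the threshold, 6 lost the call, 7 gained it and 1 changed sign (ACACB, -0.0003 adjusted for strand class). The 24 other genes that the naming rule gave had 360 values: 293 the same, 45 lost, 12 gained and 10 of changed sign, the last being CPT1A (-0.0299 with total counts, -0.0888 with the strand class, -0.0183 to 0.0504 without single libraries) and ACSL3 (-0.0233 with total counts, -0.0075 with unstranded counts, -0.0096 to 0.0395 without single libraries). The count of genes called, 704, was 29 adjusted for strand class, where 2 of the co-culture libraries form a class of their own, and ran from 65 (without control 2) to 3069 (without control 1) without single libraries; the cause was not tested. With total counts it was 310 higher and 572 lower, against 388 and 316. The count of members called was 3 with DESeq2, 0 with the strand class and 0 to 5 without single libraries. With the replicate number as a block, 164 genes and 0 members were called, with ACLY at 0.30 (adjusted p 0.0815 in edgeR). In that fit 5 members had an unadjusted p under 0.05, and the share of all genes at that level was not counted. Same-numbered libraries had correlations of their deviations from the group means of -0.042, -0.085 and -0.091. Those with different numbers had 0.008 to 0.077. These values show no pairing by number, but with 3 libraries per group they cannot settle whether the samples were paired. The lowest count of a member was 390 reads (ACACB in control 2), and the part of depth in the results was not tested.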

Other observations

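Ratios of reads between members are free of library scaling. The ratio of SCD to SCD5 reads was 12.1, 13.2 and 14.55 in ROS co-culture libraries 1, 2 and 3 and 11.45, 10.2 and 10.3 in controls 1, 2 and 3, without overlap, although SCD itself overlapped between the groups. The ratio of ACLY to ACSS2 reads was 24.3, 23.3 and 25.0 in co-culture and 18.01, 21.7 and 23.4 in the controls, which overlapped. The ratio of ACACA to ACACB reads was 15.05, 13.7 and 14.0 against 12.4, 13.4 and 13.3, without overlap. ELOVL6 to ELOVL5 reads stood at 0.239, 0.230 and 0.225 against 0.176, 0.248 and 0.244, which overlapped. SCD to FASN reads, at 0.846, 0.824 and 0.786 against 0.992, 0.770 and 0.657, also overlapped. The ratios were chosen with the levels known and were not tested, and 3 libraries against 3 cannot give an exact two-sided p under 0.1. Of single tested genes, 29.3% did not overlap between the groups in either direction, and the share among ratios was not counted.

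The mitochondrial route of fatty acid synthesis, which makes the precursor of lipoic acid, had 0 of 11 genes called by edgeR, DESeq2 or limma-voom, with 1 higher and 2 lower at an unadjusted p under 0.05 and a median log2 fold change of 0.04. MCAT, its malonyl transferase, had 20.6 ± 1.45 CPM in co-culture against 23.8 ± 1.475 CPM, and was named after its values were seen (adjusted p 0.188 in edgeR). DGAT2, which makes triglycerides, had 2.90, 3.61 and 3.715 CPM in co-culture against 4.90, 4.59 and 4.14 CPM, was also named after its values were seen, and did not pass (adjusted p 0.189 in edgeR).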
